A study of Mus musculus with 12 samples.

Results

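The genes of the TGF-beta and BMP pathway were read on 12 Affymetrix Mouse Gene 1.0 ST arrays, and 55 of the 17103 genes tested belonged to it. Members were the probe sets, 1 summarised value per transcript, whose single gene symbol in the authors' table begins with or equals a fixed set of names: the TGF-beta, BMP, activin and inhibin ligands, their receptors, the SMADs, the ID genes, the latent TGF-beta binding proteins, and the secreted antagonists noggin, gremlin, chordin and follistatin with its relatives. Every member had 1 probe set. RefSeq holds 61 protein-coding mouse genes that match these names, and the other 6, Acvr1c, Bmp2, Bmp10, Fstl5, Inhbe and Tgfbr3l, were not analysed here. The authors' table lists probe sets with a group mean above 3 on the log2 scale, so the members are those that passed this bound, and 1 of them, Bmpr1b, passed it in MEF alone. The highest group mean was at least 6 in 33 members and below 4 in 7, where a reading can be background because the files used here give no detection call.

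The arrays fall into 4 groups of 3. Among them, iNSC1 and iNSC2 are separate sets of mouse induced neural stem cells (titles miNSC1 and miNSC2), NSC is wild-type mouse neural stem cells, and MEF is wild-type mouse embryonic fibroblasts. Both kinds of neural stem cell were given NSC basal medium, to which heparin (2 µg/ml) and the growth factors FGF-2 and EGF (20 ng/ml each) were added. The fibroblasts were instead kept in DMEM containing serum (10% FBS). Medium therefore changes together with cell type in every comparison that involves MEF, and they cannot be told apart. Before they were collected, cells were rinsed with a serum-free medium. The labels state neither what distinguishes iNSC1 from iNSC2 (1 clone each or not), nor the induction method, the age of the animals or whether arrays of a group came from separate cultures, so each p measures the spread between these arrays, which may be technical.

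The labelled cell types were set against their markers. All 8 fibroblast markers measured fell in the iNSC and in the NSC arrays relative to MEF, with a mean over the list of 4.26 to 4.4 in iNSC1, 4.19 to 4.3 in iNSC2, 4.12 to 4.24 in NSC and 8.63 to 8.89 in MEF. Of 9 neural stem cell markers, limma called 0 in iNSC against MEF and 3 higher in NSC against MEF. Among all genes 8.21% and 8.72% were called higher. In iNSC minus MEF, 6 of the 9 had an unadjusted p under 0.05, beside 10176 of all 17103 genes. These 6 were all higher in iNSC but under 2-fold, with Sox1 the largest at 0.89. The list mean of the 9 was 4.61 to 4.72 in iNSC1, 4.72 to 4.74 in iNSC2, 4.69 to 4.83 in NSC and 4.18 to 4.33 in MEF. Sox2 had group means of 4.56 ± 0.057, 4.42 ± 0.091, 4.58 ± 0.12 and 4.502 ± 0.045 in iNSC1, iNSC2, NSC and MEF. Of the pluripotency markers listed, Nanog and Zfp42 were not among the genes tested. Of the 4 measured, 3 were higher in iNSC and 2 in NSC relative to MEF, and Dppa5a was called in neither. Pou5f1, a transcription factor among the measured markers, averaged 12.98 ± 0.025, 13.01 ± 0.033 and 12.89 ± 0.02 in iNSC1, iNSC2 and NSC against 3.54 ± 0.26 in MEF, which goes against the neural stem cell label. Macrophage markers also stood out in MEF. Relative to MEF, 6 of 8 were called lower in iNSC and 6 of 8 in NSC, beside 10.9% and 9.96% of all genes. Cd68 was called only in iNSC and Adgre1 only in NSC. Ptprc was called in neither, with means of 3.00 in iNSC, 2.99 in NSC and 3.11 in MEF. The macrophage list mean was 3.55 to 3.83 in iNSC, 3.70 to 3.76 in NSC and 6.58 to 6.87 in MEF. Groups are therefore called by their labels only, and fewer cells of a type cannot be told apart from less RNA per cell.

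TGF-beta family ligands are secreted dimers. TGF-betas are released in a latent complex held in the extracellular matrix by latent TGF-beta binding proteins, whereas BMPs are restrained by secreted antagonists that bind them directly. Ligands assemble type II and type I receptor kinases, which phosphorylate SMAD2 and SMAD3 (TGF-beta and activin) or SMAD1, SMAD5 and SMAD9 (BMP). These join SMAD4 in the nucleus, where SMAD6, SMAD7 and the ID genes are among the induced targets. In neural stem cells BMP signalling is known to hold back neuron formation and to favour quiescence or astrocyte fate, and in fibroblasts TGF-beta drives matrix production.

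Of the pathway members called against MEF, nearly all were lower in the iNSC and NSC arrays, and 31 of the 55 were not called in each of these comparisons. A gene was called at an adjusted p under 0.05 over all genes tested (limma with Benjamini-Hochberg adjustment) together with at least a 2-fold change, that is 1 on the log2 scale. In iNSC (6 arrays) against MEF (3 arrays), 2 members rose and 22 fell, 43.6% of the 55, where the background over all genes was 19.1% called, 8.21% higher and 10.9% lower. NSC against MEF also gave 2 members that rose and 22 that fell, or 43.6%, against a background of 18.7% (8.72% higher, 9.96% lower). Between iNSC and NSC, 6 members rose and 5 fell in iNSC, 20.0% of the 55, against a background of 6.55% (2.91% higher, 3.65% lower). The median log2 difference of the members was -0.44 in iNSC minus MEF, -0.53 in NSC minus MEF and -0.031 in iNSC minus NSC, beside 0.061, 0.045 and 0.0080 over all genes. Between the iNSC sets limma called 0 members, against a background of 0.152%, 0.0877% higher and 0.0643% lower. There 9 members had an unadjusted p under 0.05, beside 1992 of all 17103 genes. Without the fold minimum, 38 members passed in iNSC minus MEF (background 55.9%), 39 in NSC minus MEF (51.9%), 33 in iNSC minus NSC (35.8%) and 4 in iNSC1 minus iNSC2 (2.3%). The comparisons share arrays (MEF in 2 of them, NSC and iNSC likewise), so their counts are not separate evidence.

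**Figure D1:**
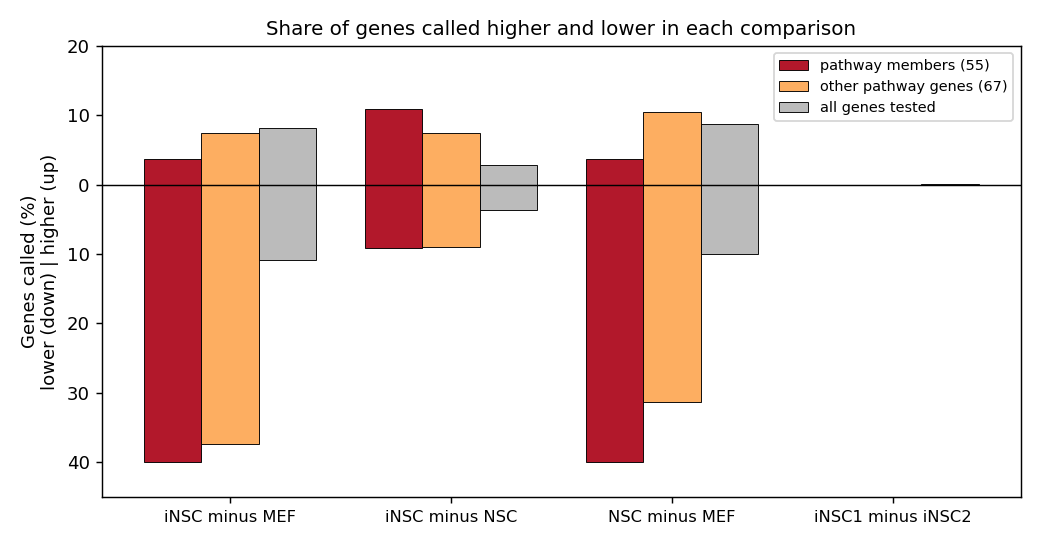
Share of genes called higher (bars above 0) and lower (bars below 0) in each comparison, in percent, for the 55 pathway members, 67 other pathway genes and all genes tested. Pathway members called lower reach 22 of 55 in iNSC minus MEF and in NSC minus MEF, while calls between iNSC and NSC split into 6 higher and 5 lower.

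Of the 55 members, 30 were called in at least 1 comparison and 25 in none. The most frequent pattern was lower in both iNSC and NSC than in MEF with no call between iNSC and NSC: 16 members (among them Tgfb3, Ltbp2, Ltbp3, Inhba, Bmp4, Acvr1, Tgfbr2, Tgfbr3, Smad6, Id2, Grem1, Fst, Fstl3, Bmp1 and Bmp2k). NSC was called lower than both iNSC and MEF in 4 members: Tgfb1, Inhbb, Acvrl1 and Smad7, the last of which was also lower in iNSC than in MEF. Another 4, Tgfb2, Ltbp1, Fstl1 and Id3, were called lower in iNSC than in both NSC and MEF, and Id3 was also lower in NSC than in MEF.

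**Figure D2:**
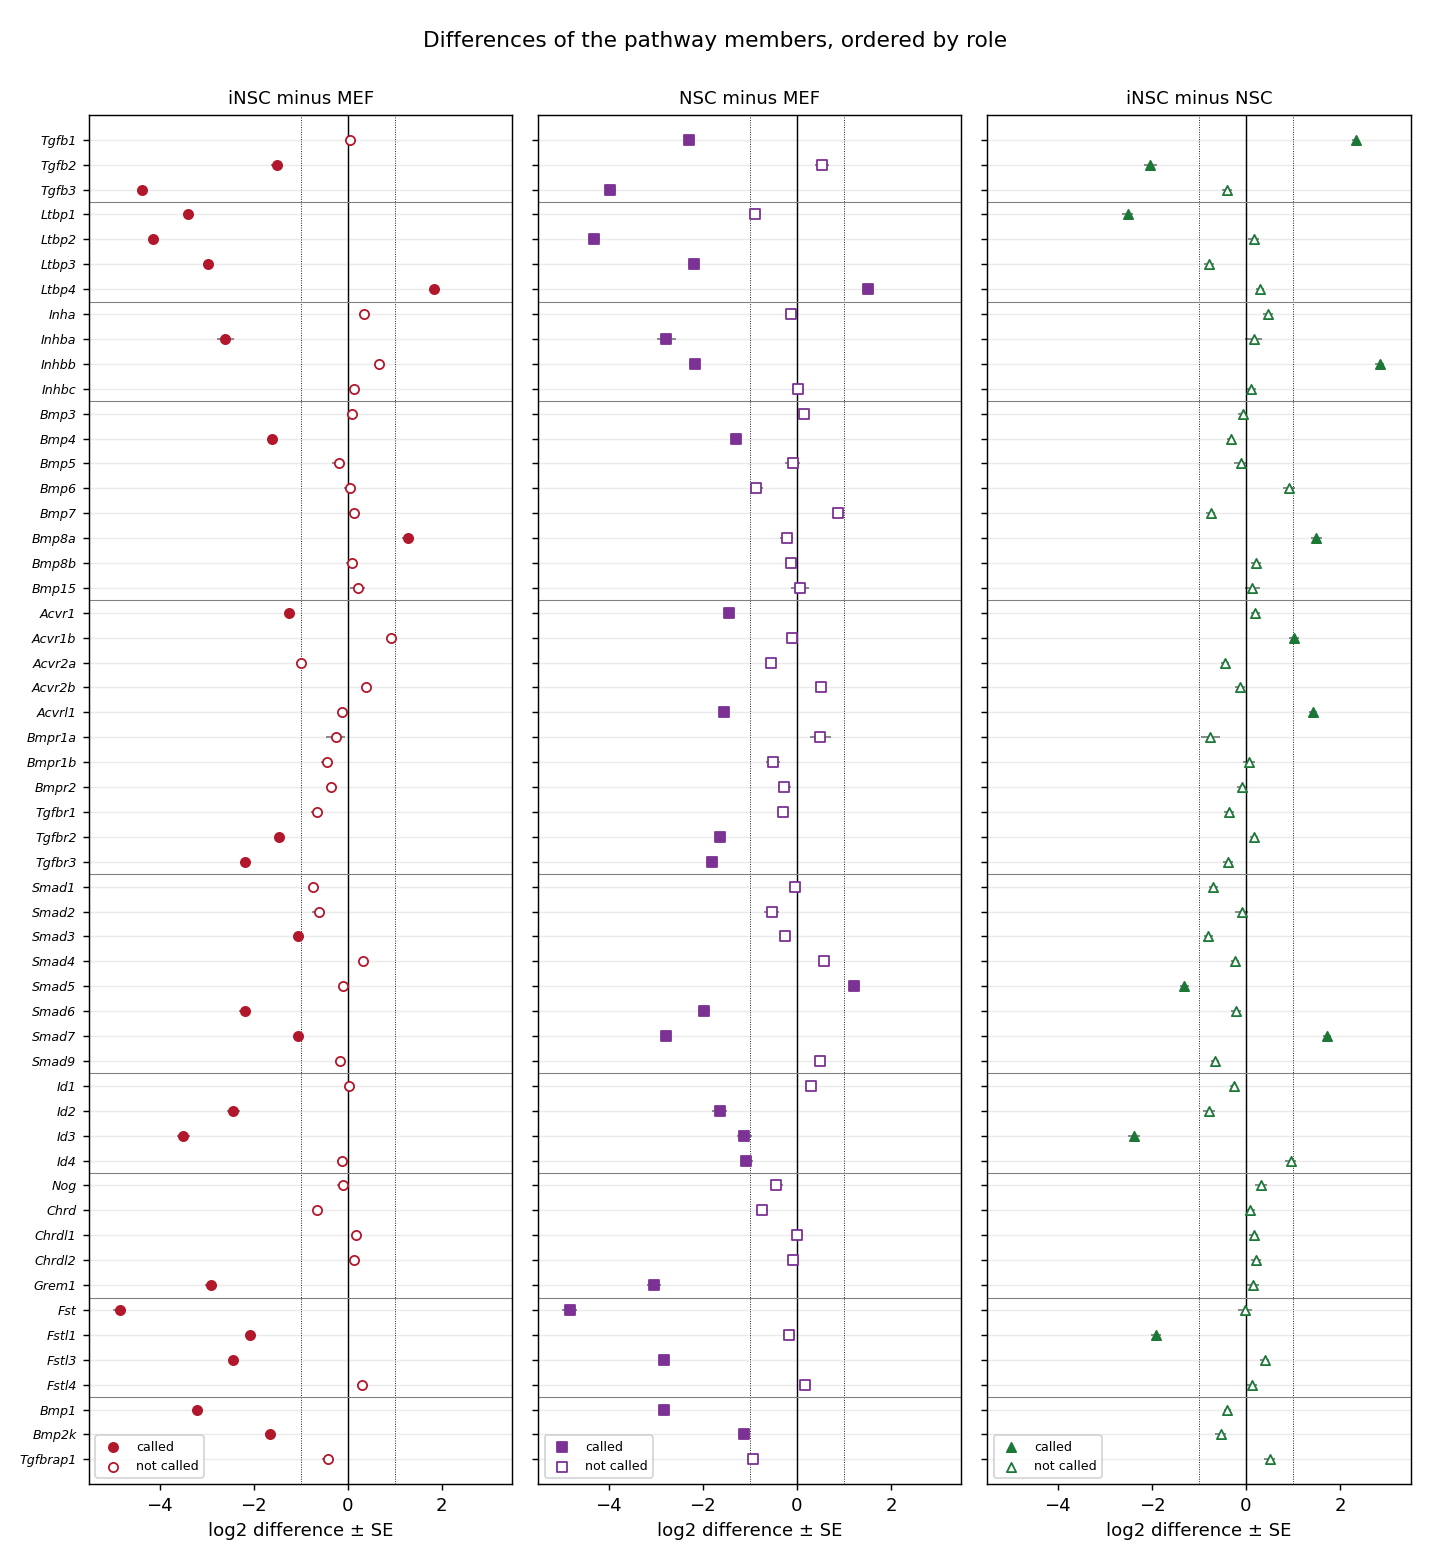
Log2 difference ± SE of the pathway members (rows, ordered by role, 1 left out) in iNSC minus MEF (left), NSC minus MEF (middle) and iNSC minus NSC (right). Filled symbols are called, open symbols are not, and dotted lines mark a 2-fold change. Fst lies furthest left in both comparisons with MEF, and Inhbb furthest right in iNSC minus NSC.

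The 3 TGF-beta ligands each had a different pattern. Tgfb1, the form best known from immune cells and platelets, read 8.401, 8.403 and 8.28 in iNSC1, 8.13, 7.99 and 8.05 in iNSC2, 5.88, 5.92 and 5.83 in NSC, and 8.12, 8.06 and 8.31 in MEF. The NSC arrays were low, and the iNSC and MEF arrays overlapped. In iNSC minus NSC it rose by 2.33 ± 0.074 (SE, 5.04-fold, adjusted p = 8.29e-14) and in NSC minus MEF it fell by 2.29 ± 0.086, while iNSC minus MEF gave 0.049 ± 0.074 (95% confidence interval -0.11 to 0.21, adjusted p = 0.61). Macrophages are a known source of TGF-beta 1, and the macrophage list stood higher in MEF as given above, whereas the iNSC arrays, with that list at 3.55 to 3.83, overlapped MEF for Tgfb1. The part of macrophage RNA in the MEF reading was not tested. Tgfb2 ran the other way, with values of 4.48, 4.29 and 4.41 in iNSC1, 4.17, 4.47 and 4.54 in iNSC2, 6.76, 6.43 and 6.08 in NSC, and 6.01, 5.93 and 5.74 in MEF. Here the iNSC arrays were all below the NSC and MEF arrays, and iNSC fell by 2.03 ± 0.13 against NSC and fell by 1.501 ± 0.13 against MEF (SE), while NSC was 0.53 ± 0.15 above MEF, under 2-fold. Tgfb3 read 5.21, 4.76 and 5.11 in iNSC1, 5.11, 4.85 and 5.03 in iNSC2, 5.45, 5.43 and 5.38 in NSC, and 9.500, 9.33 and 9.32 in MEF. Only the MEF arrays were high: iNSC fell by 4.37 ± 0.10 (20.7-fold lower, adjusted p = 2.34e-16) and NSC fell by 3.97 ± 0.12 relative to MEF. In the authors' table these genes lie on chromosome 7 from 26472021 to 26490096 (plus strand), chromosome 1 from 188447521 to 188529868 (minus) and chromosome 12 from 87397694 to 87419991 (minus), in a genome build not given in the sources used here.

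Promoter sequences are shown for Tgfb1 and Tgfb2, whose readings ran in opposite directions between iNSC and NSC, and for Id2 and Id3, textbook BMP targets that fell in both comparisons with MEF. The sequences are RefSeq windows of GRCm38.p6 from 250 bases before to 50 bases after the start, 5′ to 3′ on the gene's strand, at chr7:25686752-25687051 (plus), chr1:186705940-186706239 (minus), chr12:25096043-25096342 (minus) and chr4:136143572-136143871 (plus). Capitals mark the letters GGCGCC or GGAGCC on either strand, GC-rich elements of the kind bound by BMP SMADs.
Tgfb1: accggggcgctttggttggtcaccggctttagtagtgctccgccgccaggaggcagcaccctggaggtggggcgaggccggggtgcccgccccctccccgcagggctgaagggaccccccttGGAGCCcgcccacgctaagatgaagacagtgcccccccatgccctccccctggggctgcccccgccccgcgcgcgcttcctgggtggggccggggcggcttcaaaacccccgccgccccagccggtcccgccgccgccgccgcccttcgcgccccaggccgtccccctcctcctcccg
Tgfb2: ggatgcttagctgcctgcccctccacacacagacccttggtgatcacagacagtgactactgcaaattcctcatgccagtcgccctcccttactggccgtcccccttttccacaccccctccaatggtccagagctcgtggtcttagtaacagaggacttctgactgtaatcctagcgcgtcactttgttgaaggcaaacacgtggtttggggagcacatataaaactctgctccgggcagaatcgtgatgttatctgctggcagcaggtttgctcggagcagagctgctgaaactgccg
Id2: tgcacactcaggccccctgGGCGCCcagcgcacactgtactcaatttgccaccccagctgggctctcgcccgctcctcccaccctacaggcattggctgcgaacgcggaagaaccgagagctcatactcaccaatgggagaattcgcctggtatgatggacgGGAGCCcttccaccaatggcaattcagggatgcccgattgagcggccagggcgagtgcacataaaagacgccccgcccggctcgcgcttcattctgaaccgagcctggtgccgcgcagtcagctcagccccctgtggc
Id3: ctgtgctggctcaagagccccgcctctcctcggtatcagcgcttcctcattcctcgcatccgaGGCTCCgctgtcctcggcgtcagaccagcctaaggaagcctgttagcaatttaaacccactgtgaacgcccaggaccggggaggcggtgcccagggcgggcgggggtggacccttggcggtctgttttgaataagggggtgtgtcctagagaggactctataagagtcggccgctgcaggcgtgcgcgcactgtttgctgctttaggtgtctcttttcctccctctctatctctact
The letters GGCGCC occur in 11.9% and GGAGCC in 30.8% of all 32851 RefSeq windows of this length, and in 15 and 25 of the 49 windows of the 40 members that have one. The palindrome GTCTAGAC, a SMAD3 and SMAD4 element, occurs in 0.213% of all windows, in 1 member window and in none of the windows shown. Id2 holds 1 match to each GC-rich element, Id3 and Tgfb1 hold 1 match to GGAGCC, and Tgfb2 holds neither. GC content is 63.3%, 60.0%, 77.0% and 54.3% in the same order. A match describes letters, and its use in these cells was not measured.

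The latent TGF-beta binding proteins, which anchor latent TGF-beta to fibrillin fibres, were all called in iNSC against MEF, 3 lower and 1 higher. In NSC against MEF 2 were lower and 1 higher. The shares of all genes called lower were 10.9% and 9.96% in that order, and 8.21% and 8.72% were called higher. Whether these few genes differ from those shares was not tested. Ltbp2, a member of the family that does not bind latent TGF-beta, read 4.94, 5.04 and 4.97 in iNSC1, 4.66, 4.99 and 4.93 in iNSC2, 4.63, 5.01 and 4.63 in NSC, and 9.13, 9.16 and 8.91 in MEF. The MEF arrays alone were high, and iNSC fell by 4.15 ± 0.11 and NSC fell by 4.31 ± 0.12 relative to MEF (SE). Ltbp3 read 5.900, 6.26 and 5.86 in iNSC1, 5.72, 5.63 and 5.99 in iNSC2, 6.62, 6.69 and 6.695 in NSC, and 9.06, 8.75 and 8.77 in MEF. Its order was iNSC, NSC, MEF with no overlap between the 3 cell labels, and it fell by 2.97 ± 0.11 in iNSC and fell by 2.19 ± 0.12 in NSC relative to MEF. Ltbp1 gave values of 4.25, 4.53 and 4.51 in iNSC1, 4.08, 4.28 and 4.54 in iNSC2, 7.01, 6.73 and 6.91 in NSC, and 7.86, 7.698 and 7.74 in MEF. It was low only in the iNSC arrays, where it fell by 2.52 ± 0.11 against NSC (5.72-fold lower, adjusted p = 4.29e-12) and fell by 3.400 ± 0.11 against MEF, while NSC minus MEF was -0.88 ± 0.13, under 2-fold. Ltbp4 was the exception, at 7.46, 7.46 and 7.26 in iNSC1, 7.56, 7.49 and 7.498 in iNSC2, 7.09, 7.15 and 7.21 in NSC, and 5.63, 5.52 and 5.74 in MEF. MEF was the low group here, and Ltbp4 rose by 1.82 ± 0.08 in iNSC and by 1.52 ± 0.092 in NSC relative to MEF.

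Among the activin and inhibin subunits, the beta chains that make activin A and activin B parted. Inhba, the activin A chain, read 4.701, 3.99 and 3.69 in iNSC1, 3.93, 3.92 and 4.22 in iNSC2, 4.01, 3.51 and 4.21 in NSC, and 6.69, 6.62 and 6.74 in MEF. MEF alone was high, and iNSC fell by 2.61 ± 0.18 and NSC fell by 2.77 ± 0.21 (SE) relative to MEF. Inhbb, the activin B chain, read 7.62, 7.24 and 7.28 in iNSC1, 7.25, 7.24 and 7.17 in iNSC2, 4.35, 4.64 and 4.36 in NSC, and 6.69, 6.57 and 6.63 in MEF. NSC was low in every array, and in iNSC minus NSC Inhbb rose by 2.85 ± 0.098 (7.2-fold, adjusted p = 2.18e-13), the largest rise of any member in that comparison. Relative to MEF, Inhbb fell by 2.18 ± 0.11 in NSC, and iNSC was 0.67 ± 0.098 above MEF, which is under 2-fold though no array overlapped. Inha, the inhibin alpha chain, averaged 5.43 ± 0.24 in iNSC (n = 6), 4.96 ± 0.096 in NSC and 5.08 ± 0.10 in MEF (SD), and Inhbc, a liver activin chain, 3.53 ± 0.11, 3.43 ± 0.17 and 3.399 ± 0.082. Neither was called in any comparison.

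Of 8 BMP ligands measured, 2 were called in iNSC against MEF, 1 in NSC against MEF and 1 in iNSC against NSC. Among all genes the shares called were 19.1%, 18.7% and 6.55% in that order. Whether the ligand counts differ from these shares was not tested. Bmp4, a morphogen of mesoderm and dorsal neural tube, read 6.15, 5.99 and 6.098 in iNSC1, 6.66, 6.76 and 6.73 in iNSC2, 6.77, 6.67 and 6.73 in NSC, and 8.19, 7.89 and 7.96 in MEF. MEF was the highest group, and Bmp4 fell by 1.61 ± 0.082 in iNSC and fell by 1.29 ± 0.095 in NSC relative to MEF (SE). The iNSC1 arrays all lay below the iNSC2 and NSC arrays, and iNSC1 minus iNSC2 was -0.64 ± 0.095 (adjusted p = 0.00109). Bmp8a, known from germ cell development, had readings of 6.102, 5.94 and 6.37 in iNSC1, 6.94, 6.36 and 6.49 in iNSC2, 4.96, 4.79 and 4.85 in NSC, and 5.13, 4.96 and 5.17 in MEF. Every iNSC array was above every NSC and MEF array, and Bmp8a rose by 1.501 ± 0.12 relative to NSC and by 1.28 ± 0.12 relative to MEF. Bmp7, a kidney and eye morphogen, read 4.79, 4.68 and 4.54 in iNSC1, 4.45, 4.54 and 4.79 in iNSC2, 5.42, 5.33 and 5.400 in NSC, and 4.46, 4.43 and 4.601 in MEF. Every NSC array lay above all others, but under 2-fold, at 0.88 ± 0.12 above MEF, and iNSC minus NSC was -0.75 ± 0.10. Bmp6 had the reverse order, with iNSC minus NSC at 0.91 ± 0.12 and NSC minus MEF at -0.86 ± 0.14, also under 2-fold, and these values passed 2-fold without NSC replicate 2, at 1.11 and -1.06. Bmp3, Bmp5, Bmp8b and Bmp15 were not called, with group means between 2.99 and 4.83 and differences between cell labels of at most 0.21 in size.

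**Figure D3:**
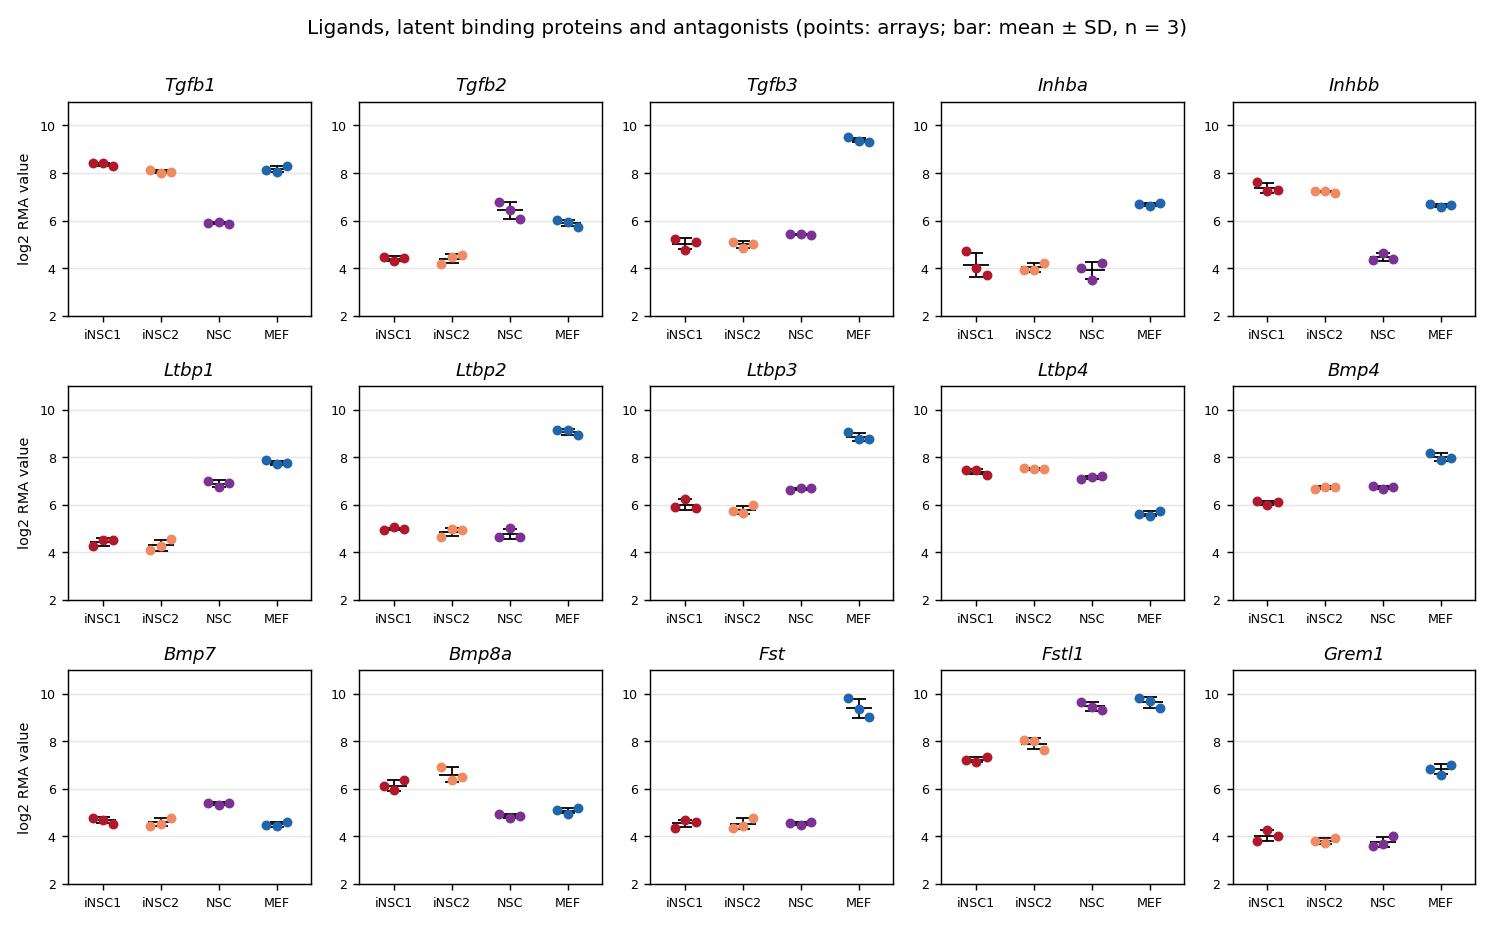
Log2 RMA values of 15 ligands, latent binding proteins and antagonists on each array of iNSC1, iNSC2, NSC and MEF (points), with the mean ± SD of 3 arrays (black bars). Tgfb1 and Inhbb are low in NSC only, Tgfb2, Ltbp1 and Fstl1 are low in iNSC, Ltbp4 is low in MEF, and Tgfb3, Ltbp2, Inhba, Fst and Grem1 are high in MEF only.

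Of 11 receptors and co-receptors, 3 fell in iNSC and 4 fell in NSC relative to MEF, and 0 rose. The falls are 27.3% and 36.4% of the 11, beside 10.9% and 9.96% of all genes. Among all genes 8.21% and 8.72% rose, so 0 of 11 says little. Tgfbr2, the type II receptor that binds TGF-beta first, read 6.52, 6.35 and 6.596 in iNSC1, 6.71, 6.62 and 6.64 in iNSC2, 6.47, 6.37 and 6.35 in NSC, and 8.18, 8.02 and 7.898 in MEF. MEF was above every other array, and Tgfbr2 fell by 1.46 ± 0.084 in iNSC and fell by 1.63 ± 0.097 in NSC (SE). Tgfbr1, the type I partner, read low everywhere at 2.98, 2.94 and 2.86 in iNSC1, 3.11, 2.68 and 2.99 in iNSC2, 3.45, 3.18 and 3.25 in NSC, and 3.52, 3.71 and 3.54 in MEF. Its iNSC minus MEF difference was -0.66 ± 0.11 and NSC minus MEF -0.299 ± 0.13, neither of them 2-fold. Tgfbr3, the co-receptor betaglycan, averaged 4.496 ± 0.11 in iNSC, 4.88 ± 0.12 in NSC and 6.68 ± 0.20 in MEF (SD), and fell by 2.18 ± 0.11 and fell by 1.797 ± 0.13 in the comparisons with MEF. Acvr1, the type I BMP receptor ALK2, fell by 1.24 ± 0.092 in iNSC and fell by 1.45 ± 0.11 in NSC relative to MEF.

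A pair of type I receptors separated iNSC from NSC. Acvrl1, known as ALK1 and prominent in endothelium, read 6.99, 6.96 and 7.01 in iNSC1, 7.21, 7.11 and 7.28 in iNSC2, 5.45, 5.72 and 5.83 in NSC, and 7.17, 7.17 and 7.32 in MEF. NSC was the low group, so Acvrl1 rose by 1.42 ± 0.089 in iNSC minus NSC and fell by 1.55 ± 0.10 in NSC minus MEF, while iNSC minus MEF was -0.13 ± 0.089 (95% confidence interval -0.32 to 0.06). Acvr1b, the activin receptor ALK4, read 6.42, 6.36 and 6.36 in iNSC1, 6.69, 6.44 and 6.54 in iNSC2, 5.64, 5.28 and 5.402 in NSC, and 5.63, 5.33 and 5.67 in MEF. It was higher in all iNSC arrays and rose by 1.03 ± 0.10 relative to NSC (2.04-fold), a call that ended without iNSC2 replicate 1 or without NSC replicate 2 (0.949 and 0.996, lowest and highest), and the difference from MEF was 0.92 ± 0.10. The receptors with a Bmpr symbol gave no call. Bmpr1a, the type I receptor ALK3, read 5.31, 4.61 and 5.12 in iNSC1, 5.56, 5.22 and 4.53 in iNSC2, 5.94, 5.76 and 5.75 in NSC, and 5.52, 5.53 and 4.89 in MEF. The iNSC and MEF arrays overlapped and NSC lay above both, and iNSC minus NSC was -0.76 ± 0.20. Bmpr2, the type II BMP receptor, read 5.401, 5.61 and 5.72 in iNSC1, 5.84, 5.696 and 5.41 in iNSC2, 5.93, 5.55 and 5.61 in NSC, and 6.05, 5.91 and 5.94 in MEF. NSC overlapped both iNSC and MEF, and the iNSC arrays lay below MEF, with differences of -0.35 ± 0.11 in iNSC minus MEF and -0.27 ± 0.13 in NSC minus MEF. The activin type II receptors Acvr2a and Acvr2b differed in sign below 2-fold, at -0.99 ± 0.092 and 0.39 ± 0.099 in iNSC minus MEF, and Bmpr1b averaged 2.76 ± 0.11, 2.69 ± 0.17 and 3.204 ± 0.33 in iNSC, NSC and MEF. The value of Acvr2a passed 2-fold without iNSC1 replicate 3, iNSC2 replicate 1 or MEF replicate 1 (-1.04 to -1.003).

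Of the 8 SMADs, 3 fell in iNSC relative to MEF, and in NSC 2 fell and 1 rose. That is 37.5% called in each, beside 19.1% and 18.7% of all genes. The inhibitory SMADs, which are induced by the pathway and block its receptors, both fell. Smad7 read 6.74, 6.76 and 6.83 in iNSC1, 7.27, 7.28 and 7.27 in iNSC2, 5.34, 5.13 and 5.41 in NSC, and 8.21, 7.91 and 8.11 in MEF. The order NSC, iNSC, MEF held in every array, and Smad7 fell by 2.78 ± 0.10 in NSC (adjusted p = 1.21e-13) and fell by 1.05 ± 0.086 in iNSC relative to MEF, while it rose by 1.73 ± 0.086 in iNSC minus NSC (SE). The call in iNSC minus MEF ended without MEF replicate 1 (-0.98). That difference averages iNSC1 (mean 6.78) and iNSC2 (mean 7.27), and iNSC1 minus iNSC2 was -0.50 ± 0.10 (limma, adjusted p = 0.0107). Smad6, the inhibitor that acts mainly on the BMP branch, averaged 5.22 ± 0.20 in iNSC, 5.43 ± 0.075 in NSC and 7.41 ± 0.14 in MEF (SD), and fell by 2.197 ± 0.11 and fell by 1.98 ± 0.13. Smad3, the TGF-beta and activin effector, read 6.23, 6.25 and 6.34 in iNSC1, 6.25, 6.196 and 6.42 in iNSC2, 7.26, 7.08 and 6.89 in NSC, and 7.42, 7.29 and 7.29 in MEF. The iNSC arrays lay below all others, and Smad3 fell by 1.05 ± 0.091 relative to MEF, with -0.796 ± 0.091 relative to NSC.

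Smad5, a BMP effector, had a pattern of its own at 5.82, 5.76 and 5.71 in iNSC1, 6.12, 5.94 and 5.701 in iNSC2, 7.25, 7.17 and 7.04 in NSC, and 6.04, 6.01 and 5.76 in MEF. Every NSC array lay above all others, and Smad5 rose by 1.22 ± 0.12 in NSC minus MEF and fell by 1.31 ± 0.10 in iNSC minus NSC. The other BMP effectors stayed under 2-fold. Smad1 read 5.73, 5.54 and 5.27 in iNSC1, 5.53, 5.51 and 5.57 in iNSC2, 6.22, 6.21 and 6.23 in NSC, and 6.39, 6.32 and 6.09 in MEF. The iNSC arrays lay below NSC and MEF, which overlapped, and iNSC was -0.69 ± 0.10 relative to NSC and -0.74 ± 0.10 relative to MEF. For Smad9, NSC was the highest group: iNSC minus NSC was -0.66 ± 0.091 and NSC minus MEF 0.499 ± 0.11. Smad4, the shared partner, read 8.18, 8.04 and 8.12 in iNSC1, 8.29, 8.28 and 8.02 in iNSC2, 8.51, 8.44 and 8.23 in NSC, and 7.95, 7.83 and 7.69 in MEF. Its largest difference was 0.57 ± 0.10 in NSC minus MEF, under 2-fold. Smad2 averaged 5.42 ± 0.20, 5.503 ± 0.12 and 6.04 ± 0.35 in iNSC, NSC and MEF and was not called.

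**Figure D4:**
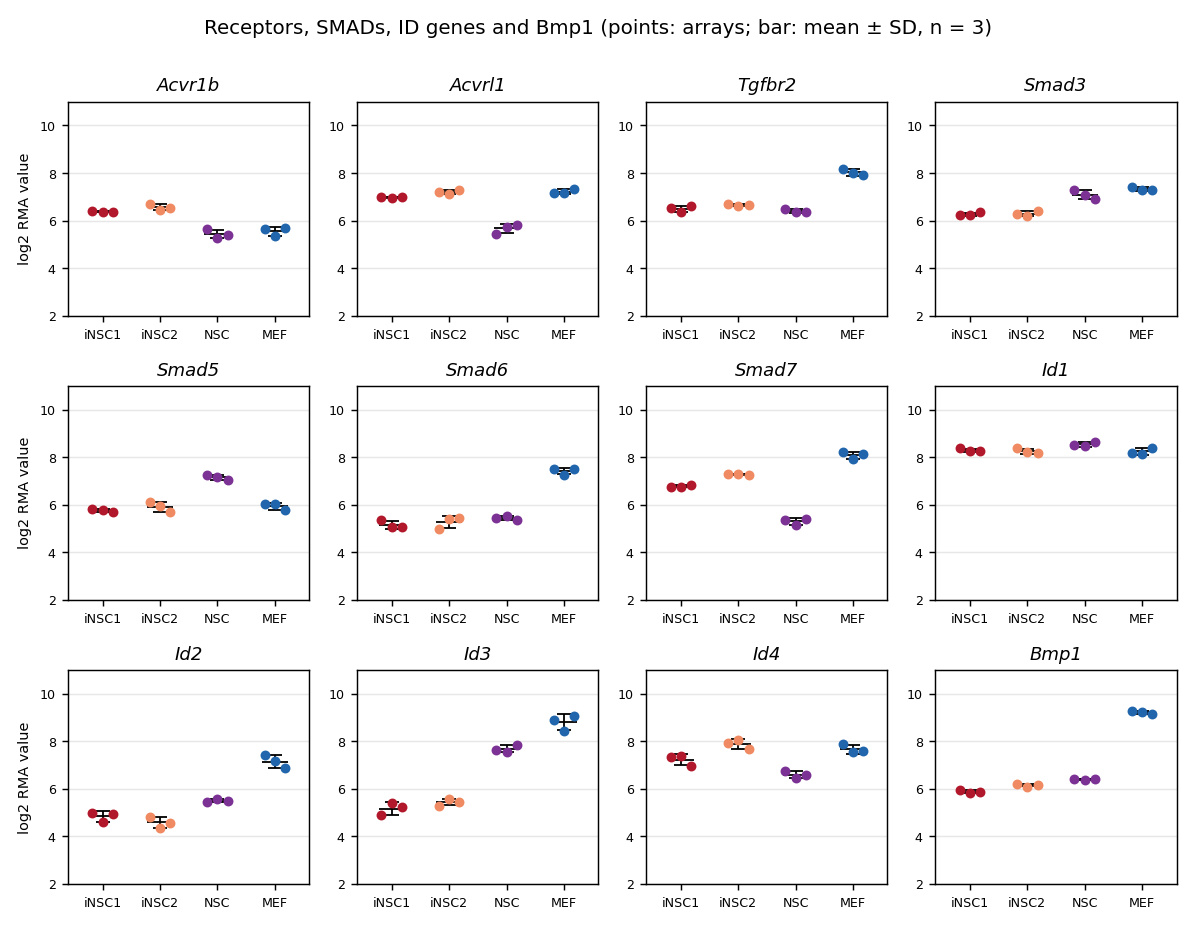
Log2 RMA values of 12 receptors, SMADs, ID genes and Bmp1 on each array of iNSC1, iNSC2, NSC and MEF (points), with the mean ± SD of 3 arrays (black bars). Id1 lies between 8.13 and 8.64 on all arrays, Id3 is lowest in iNSC and highest in MEF, Smad5 is highest in NSC and Smad7 lowest there.

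The ID genes encode helix-loop-helix proteins that block differentiation factors, and their patterns differed. Id1 read 8.37, 8.25 and 8.27 in iNSC1, 8.38, 8.21 and 8.17 in iNSC2, 8.51, 8.47 and 8.64 in NSC, and 8.19, 8.13 and 8.402 in MEF. The iNSC and MEF arrays overlapped and the NSC arrays lay slightly above them, with iNSC minus MEF at 0.033 ± 0.077 (95% confidence interval -0.13 to 0.196) and NSC minus MEF at 0.296 ± 0.089. Id3 read 4.88, 5.39 and 5.23 in iNSC1, 5.29, 5.56 and 5.45 in iNSC2, 7.65, 7.55 and 7.83 in NSC, and 8.897, 8.41 and 9.07 in MEF. The cell labels did not overlap, and Id3 fell by 3.496 ± 0.13 in iNSC minus MEF (11.3-fold lower, adjusted p = 1.99e-13), fell by 2.38 ± 0.13 in iNSC minus NSC and fell by 1.12 ± 0.16 in NSC minus MEF (SE), the last of which lost its call without MEF replicate 5 (-0.98). Id2 read 4.99, 4.58 and 4.94 in iNSC1, 4.83, 4.37 and 4.56 in iNSC2, 5.43, 5.58 and 5.49 in NSC, and 7.41, 7.16 and 6.86 in MEF. Its order was the same, and it fell by 2.43 ± 0.13 in iNSC and fell by 1.64 ± 0.15 in NSC relative to MEF, with -0.79 ± 0.13 between iNSC and NSC. Id4, a regulator of neural stem cell quiescence, read 7.34, 7.38 and 6.96 in iNSC1, 7.94, 8.05 and 7.67 in iNSC2, 6.76, 6.46 and 6.58 in NSC, and 7.89, 7.54 and 7.58 in MEF. NSC was lowest and iNSC1 lay below iNSC2: NSC fell by 1.07 ± 0.13 relative to MEF, a call that ended without MEF replicate 1 (-0.96), iNSC minus NSC was 0.96 ± 0.11, and iNSC1 minus iNSC2 was -0.66 ± 0.13 (adjusted p = 0.0109).

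Of the 6 noggin, gremlin and chordin members, which are secreted BMP antagonists, 2 fell in iNSC and in NSC relative to MEF. That is 33.3% called in each, beside 19.1% and 18.7% of all genes. Between iNSC and NSC limma called 0 of the 6 (1 at an unadjusted p under 0.05), beside 6.55% of all genes. Grem1, gremlin, a BMP antagonist of limb and kidney mesenchyme, read 3.79, 4.27 and 4.02 in iNSC1, 3.79, 3.702 and 3.92 in iNSC2, 3.61, 3.696 and 4.003 in NSC, and 6.84, 6.59 and 7.01 in MEF. MEF alone was high, and Grem1 fell by 2.901 ± 0.13 in iNSC and fell by 3.05 ± 0.15 in NSC (SE). Nog, noggin, read 5.41, 5.37 and 4.94 in iNSC1, 5.02, 5.34 and 5.22 in iNSC2, 4.78, 5.01 and 4.89 in NSC, and 5.31, 5.13 and 5.54 in MEF. The iNSC arrays overlapped both NSC and MEF, with iNSC minus MEF at -0.11 ± 0.12 (95% confidence interval -0.37 to 0.15) and NSC minus MEF at -0.43 ± 0.14. Chrd, chordin, averaged 4.895 ± 0.11, 4.800 ± 0.17 and 5.54 ± 0.094 in iNSC, NSC and MEF, under 2-fold, and the chordin-like genes Chrdl1 and Chrdl2 had group means from 3.01 to 4.25.

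Follistatin and its relatives held the largest change of all members. Fst, follistatin, which neutralises activins, read 4.37, 4.68 and 4.598 in iNSC1, 4.35, 4.44 and 4.79 in iNSC2, 4.57, 4.49 and 4.61 in NSC, and 9.805, 9.34 and 9.02 in MEF. The MEF arrays were far above the rest, which overlapped, and Fst fell by 4.85 ± 0.14 in iNSC (28.9-fold lower, adjusted p = 4.67e-15) and fell by 4.83 ± 0.16 in NSC relative to MEF (SE). It lies on chromosome 13 from 115243537 to 115248938, minus strand, in the authors' table. Fstl3, another activin binder, read 5.75, 5.95 and 5.93 in iNSC1, 5.51, 5.77 and 5.84 in iNSC2, 5.399, 5.25 and 5.53 in NSC, and 8.18, 8.16 and 8.33 in MEF. It fell by 2.43 ± 0.097 in iNSC and fell by 2.83 ± 0.11 in NSC relative to MEF. Fstl1, a secreted glycoprotein of mesenchyme, read 7.200, 7.14 and 7.33 in iNSC1, 8.06, 8.02 and 7.64 in iNSC2, 9.66, 9.46 and 9.302 in NSC, and 9.82, 9.71 and 9.38 in MEF. NSC and MEF overlapped, and iNSC was low: Fstl1 fell by 1.91 ± 0.11 against NSC and fell by 2.07 ± 0.11 against MEF, and iNSC1 minus iNSC2 was -0.68 ± 0.13 (adjusted p = 0.00625). Fstl4 averaged 3.57 ± 0.16, 3.44 ± 0.022 and 3.27 ± 0.10 and was not called.

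A further 3 members carry a matching symbol without being ligands or receptors. Bmp1 is the procollagen C-proteinase, which also cleaves chordin and latent TGF-beta complexes, and it read 5.96, 5.82 and 5.86 in iNSC1, 6.195, 6.096 and 6.16 in iNSC2, 6.41, 6.39 and 6.43 in NSC, and 9.27, 9.24 and 9.16 in MEF. The MEF arrays stood apart, and Bmp1 fell by 3.21 ± 0.072 in iNSC (9.25-fold lower) and fell by 2.82 ± 0.084 in NSC. Bmp2k, a kinase named for its induction by BMP2, fell by 1.65 ± 0.11 and fell by 1.12 ± 0.13 (SE) in iNSC and NSC relative to MEF, where it averaged 4.37 ± 0.21 (SD), and both calls are absent when genes are required to reach 6 in a group. Tgfbrap1, a receptor-associated trafficking protein, was not called, and its NSC minus MEF value was -0.93 ± 0.13, or -1.07 without NSC replicate 3.

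Beyond the members, 67 of 74 further pathway genes listed for this work were measured. In iNSC against MEF 5 rose and 25 fell (44.8% called), in NSC against MEF 7 rose and 21 fell (41.8%), and in iNSC against NSC 5 rose and 6 fell (16.4%), beside the background shares given above. All 7 TGF-beta target genes measured fell in iNSC and in NSC relative to MEF, beside 10.9% and 9.96% of all genes. This list holds several genes that fibroblasts also express at high levels. Cell type and medium change together here, and the part of each, or of pathway activity, was not tested. Ccn2, connective tissue growth factor, read 6.38, 6.45 and 6.297 in iNSC1, 6.85, 6.91 and 6.78 in iNSC2, 6.33, 6.47 and 6.46 in NSC, and 12.54, 12.54 and 12.52 in MEF. The MEF arrays alone were high, and Ccn2 fell by 5.92 ± 0.067 in iNSC and fell by 6.11 ± 0.078 in NSC (SE). Between iNSC and NSC limma called 0 of these 7, beside 6.55% of all genes, so 0 of 7 says little. Of the 7, 4 had an unadjusted p under 0.05, beside 7259 of all 17103 genes. Other genes described here as pathway-induced are outside the target lists. Of those, Smad7, Pmepa1 and Skil were called higher in iNSC than in NSC, Id3 was called lower, and Id1, Id2, Id4 and Smad6 were not called. The 8 BMP target genes were mixed: 1 rose and 3 fell in iNSC, and 3 rose and 2 fell in NSC, relative to MEF. Over all genes tested, 8.21% rose and 10.9% fell in iNSC, and 8.72% rose and 9.96% fell in NSC. Whether the counts of these 8 genes differ from those shares was not tested. Gata3 rose by 1.895 ± 0.095 in iNSC and by 2.13 ± 0.11 in NSC. Gata2, a blood and endothelial factor, fell by 1.38 ± 0.12 in iNSC and rose by 1.45 ± 0.14 in NSC relative to MEF.

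Of 14 secreted modulators and activators, 8 fell in iNSC and 8 fell in NSC relative to MEF. That is 57.1% called in each, beside 19.1% and 18.7% of all genes. Thbs1, which can activate latent TGF-beta, fell by 8.49 ± 0.087 in iNSC and fell by 8.37 ± 0.10 in NSC relative to MEF, and Fbn1, the fibrillin that holds latent complexes, fell by 4.17 ± 0.081 and fell by 3.63 ± 0.094 (SE). Pmepa1, a TGF-beta-induced inhibitor of SMAD activation, read 8.84, 8.99 and 8.79 in iNSC1, 8.67, 8.68 and 8.67 in iNSC2, 5.58, 5.81 and 5.74 in NSC, and 10.59, 10.45 and 10.55 in MEF. As with Smad7, NSC was lowest, iNSC between and MEF highest: Pmepa1 rose by 3.06 ± 0.07 in iNSC minus NSC and fell by 4.82 ± 0.081 in NSC minus MEF. Nbl1, a BMP antagonist of the DAN family, had that order too, with 2.32 ± 0.13 in iNSC minus NSC and -4.31 ± 0.15 in NSC minus MEF, and Nedd4l, a ubiquitin ligase that acts on SMADs, rose by 1.55 ± 0.11 in iNSC minus NSC. Eng, the endothelial co-receptor endoglin, ran against its partner Acvrl1, with readings of 6.49, 6.45 and 6.46 in iNSC1, 6.96, 6.698 and 6.66 in iNSC2, 8.92, 9.001 and 8.96 in NSC, and 7.82, 7.79 and 7.81 in MEF. NSC was highest, and Eng fell by 2.34 ± 0.075 in iNSC minus NSC and rose by 1.15 ± 0.087 in NSC minus MEF.

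Further ligands and nuclear regulators were called in either direction. Gdf3, a ligand of pluripotent cells, read 8.38, 8.399 and 8.36 in iNSC1, 8.51, 8.42 and 8.602 in iNSC2, 4.46, 4.25 and 4.82 in NSC, and 3.81, 4.13 and 4.12 in MEF. The iNSC arrays stood apart from all others, and Gdf3 rose by 3.93 ± 0.11 relative to NSC and by 4.43 ± 0.11 relative to MEF. Skil, the SMAD corepressor SnoN and itself a target, rose by 1.65 ± 0.12 in iNSC relative to MEF and by 1.52 ± 0.12 relative to NSC. Tgif2, another corepressor, rose by 1.58 ± 0.10 in iNSC and by 1.39 ± 0.12 in NSC relative to MEF. Gdf5, a joint and cartilage BMP, fell by 1.86 ± 0.11 in iNSC minus NSC and rose by 1.796 ± 0.13 in NSC minus MEF, and Gdf15, a stress-induced family member, fell by 1.33 ± 0.13 in iNSC minus NSC.

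**Figure D5:**
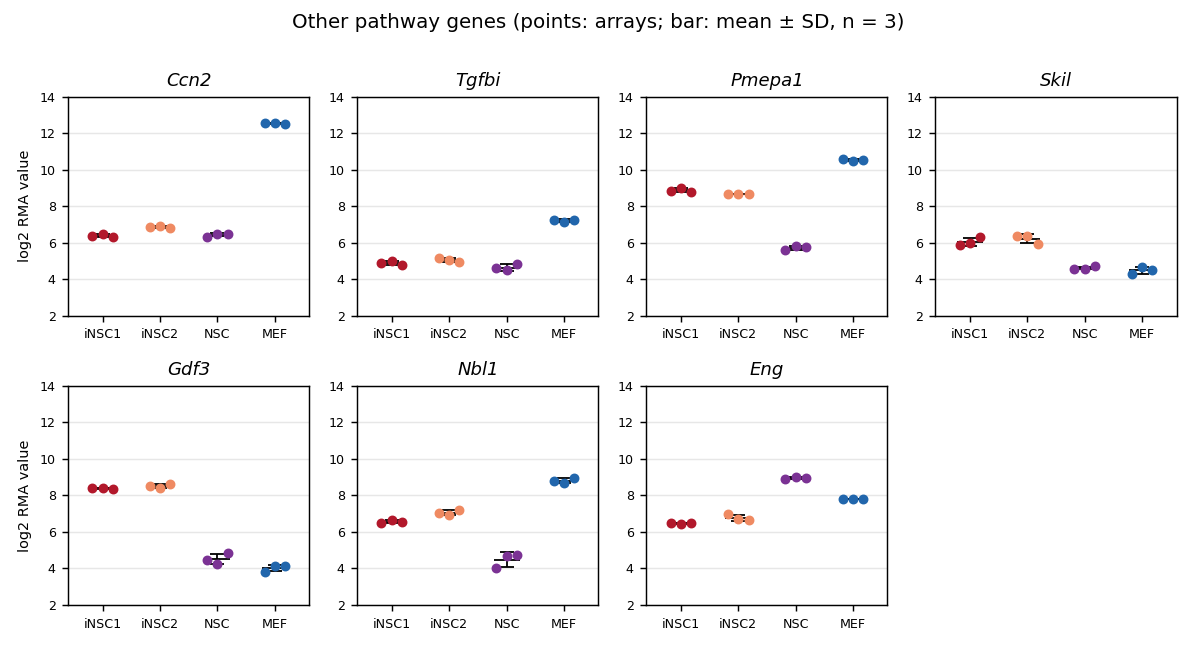
Log2 RMA values of 7 further pathway genes on each array of iNSC1, iNSC2, NSC and MEF (points), with the mean ± SD of 3 arrays (black bars). Ccn2 and Tgfbi are high in MEF only, Pmepa1 and Nbl1 are lowest in NSC and between in iNSC, Gdf3 and Skil are high in iNSC, and Eng is highest in NSC.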

How the data were processed

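The main table holds log2 values deposited by the authors, 1 per probe set and array. The notes on processing from the submitters name RMA and Affymetrix Power Tools without their steps. Versions and the genome build are not given in the sources. RMA in general equalises the arrays' distributions, which hides a shift shared by most genes, and low values compress fold changes. The authors' second table, per the file headers, gave log2 intensities, log2 ratios and gene symbols; 9 of its array columns equalled the main table and 3 per-array columns with no matching title were not used. Of 28815 probe sets, 7041 are not in that table, 1452 carry several symbols and 1919 none. The remaining 18403 had symbols updated through Entrez identifiers, and keeping the highest-mean probe set per gene left 17103 genes. Array medians lay between 4.31 and 4.44.

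The model (limma 3.58.1, run under R 4.3.3) had 4 group means, a spread shared by the 12 arrays and a trend (residual degrees of freedom 8, prior 8.7), tested on simulated data, two-sided. Errors are SD for levels and SE for differences, and levels were never compared between probe sets. An iNSC difference averages iNSC1 and iNSC2, and its SE comes from the spread within groups, not from that between the iNSC sets. Values on every array are given for fixed members and for the 8 largest called rises and falls per comparison (5 between the iNSC sets); the 4 largest of the other pathway genes are named, and others named were chosen after their values were seen. The members and lists were chosen with earlier results of these data known. Alternatives were the fold minimum, a minimum of 6, probe-set handling, median centring, fewer groups in the fit, no trend, a replicate block and each array left out. Values of 1 member and 1 other pathway gene are not reported here, though both remain in the counts.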

Additional observations from a re-analysis of the deposited data

Results flagged for a closer look

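For 4 of 55 members, 1 of the 6 iNSC arrays lay far from the other 5 by Dixon's gap ratio, where chance flags about 1 group in 20. Ltbp2 was 4.66 in iNSC2 replicate 1 against 4.93 to 5.04 in the others, Ltbp4 was 7.26 in iNSC1 replicate 3 against 7.46 to 7.56, Inhbb was 7.62 in iNSC1 replicate 1 against 7.17 to 7.28, and Smad2 was 5.03 in iNSC1 replicate 2 against 5.39 to 5.59. No array recurred among these flags. The iNSC sets differed under the same comparison with the other groups, by limma's adjusted p under 0.05 for iNSC1 minus iNSC2, in 4 members: Bmp4 (-0.64 ± 0.095), Fstl1 (-0.68 ± 0.13), Id4 (-0.66 ± 0.13) and Smad7 (-0.5 ± 0.10), each ± SE and each lower in iNSC1. They differed likewise in 5 other pathway genes: Nedd4l (-0.86 ± 0.12), Snai2 (-0.85 ± 0.14), a repressor of epithelial genes, Gata3 (-0.71 ± 0.11), Ccn2 (-0.47 ± 0.078) and Cdkn2b (-0.36 ± 0.084), a kinase inhibitor. All 9 were lower in iNSC1 and under 2-fold. Among all genes 2.3% passed the same adjusted p, and how those split by direction was not counted.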

How the results depend on the processing

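Of 59 member calls over the 4 comparisons, 53 held under each of the 20 alternatives, and no call changed direction. Leaving out 1 array ended 4, given with their genes above, and the minimum of 6 left Bmp2k untested in its 2 comparisons, for 23 members in each. In addition, apart from dropping the fold minimum, 6 differences that were not called passed under some alternative (Acvr1b in iNSC minus MEF with the replicate block, at 1.04, Id4 in iNSC minus NSC at 1.01 to 1.04, and Acvr2a, Bmp6 in both of its comparisons, and Tgfbrap1 as given). The cause of these changes was not tested. With no fold minimum the members called became 38 in iNSC minus MEF (24 with it), 33 in iNSC minus NSC (11), 39 in NSC minus MEF (24) and 4 in iNSC1 minus iNSC2 (0), and the other pathway genes 50 (30), 33 (11), 43 (28) and 5 (0), since this counts changes under 2-fold too. Leaving out each array in turn gave 24 to 25, 10 to 12, 23 to 25 and 0 to 0 members, and 28 to 30, 11 to 11, 25 to 28 and 0 to 0 other pathway genes, in that order. Correlations of deviations in 15 same-numbered pairs of arrays ran from -0.18 to 0.28. Differently numbered pairs were not correlated, so whether replicate numbers pair the arrays cannot be decided here. With the number as a block the members called were 25 in iNSC minus MEF, 11 in iNSC minus NSC, 24 in NSC minus MEF and 0 in iNSC1 minus iNSC2. Among the other pathway genes, calls for Gdf10, Msx1 and Usp15, all near 2-fold, were lost under 2 to 4 alternatives. The minimum of 6 left Gdf6, Gdf10, Tll1 and Usp15 untested against MEF (26 calls in iNSC and 24 in NSC), including Tll1 at -2.57 and Gdf6 at -1.53 in iNSC, and Gdf15 in iNSC minus NSC (10 calls). With 3 arrays a group, low readings near background and no detection call limit precision.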
